A study of Mus musculus with 2 samples.

Results

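The cells described here are basal cells of the wild-type E18.5 mouse esophagus that were low in suprabasal keratin RNA and low in chosen cell cycle RNA. They were picked cell by cell from their own RNA, in CP10K (UMIs, or unique molecular identifiers, per 10000 UMIs of the cell). A member had Krt13 plus Krt4 under 40 CP10K and Krt5 plus Krt14 of at least 5 CP10K. It also had under 3 CP10K for Mki67, Top2a, Nusap1 and Ube2c together, under 4 for Cenpa, Ccnb2 and Cdc20, and under 2 for Slfn9, Mybl2, Clspn, Ccne2, Exo1 and Cdc6. Zbtb16, Tenm2, Edaradd, Tnfrsf19 and Ccbe1 together were under 2.5 CP10K. Of the 5787 wild-type cells past the cell filter (500 genes, 1000 UMIs, 10% mitochondrial UMIs at most), 1437 met the rule, which is 24.8% (exact 95% interval 23.7 to 26.0). Both libraries together held 8209 such cells. The working name for these cells is resting basal cells, but the data bear out the word resting only in part, so they are called gated basal cells below.

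The series holds 1 wild-type and 1 p63-KO library, by their labels, each of dissociated esophageal epithelium from littermate C57BL/6 embryos at E18.5. The wild-type library has the genotype p63-CreER, and the p63-KO library carries this allele on both copies, so the wild-type cells hold the targeted allele too. The muscle was peeled off before dispase (5 min) and trypsin (10 min) were used, per the labels' protocols. The number of embryos per library is not stated, and Xist and Y-linked RNA were both found in each library. With 1 library per genotype there is no replicate, so no test was run and no p-value is given. All intervals are exact 95% intervals that cover counting error only.

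Basal cells are the layer of a stratified epithelium that rests on the basement membrane, divides, and supplies the layers above it. They are held to the membrane by hemidesmosomes and to each other by desmosomes, and they are known for keratins 5 and 14 and for the transcription factor p63 (gene Trp63). As esophageal cells leave this layer they lose those keratins and gain keratins 13 and 4, and p63 is needed for the layer to form.

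The gated cells were set against several groups. The other passing wild-type cells numbered 4350. Among them were 1480 cycling basal cells, which passed the keratin gates but failed a cell cycle gate, and 337 Zbtb16-set basal cells, which failed the last gate alone. Another 2064 were suprabasal cells, with Krt13 plus Krt4 at or over 40 CP10K and the cell cycle gates passed. From the p63-KO library came 964 epithelial cells with Epcam plus Cdh1 of at least 2 CP10K that passed every gate other than that on Krt5 plus Krt14. UMIs were summed per group and given as CPM, UMIs per 1000000 UMIs of the group. A gene was measured at 10 CPM or more in either group, and called higher or lower at 2-fold with 1 CPM added to both. All comparisons share the gated cells, and the wild-type groups lie within the other cells, so their counts overlap.

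The keratin gates kept 3254 wild-type cells, of which 44.2% were gated basal cells, 45.5% cycling basal cells and 10.4% Zbtb16-set basal cells. In the p63-KO library 0 of 2422 passing cells met the Krt5 plus Krt14 gate, so 0 cells there met the rule. The cells nearest the Krt13 plus Krt4 threshold had 39.98 CP10K inside it and 40.04 outside, and for Krt5 plus Krt14 these values were 5.03 and 4.94. For the other gates, in the order given above, they were 2.999 and 3.010, 3.954 and 4.008, 1.9997 and 2.003, and 2.493 and 2.502. There was no gap at any threshold. Within 20% of the Krt13 plus Krt4 threshold lay 115 members and 82 cells that failed this gate alone. The members' median was 13.9 CP10K for Krt13 plus Krt4 and 14.8 CP10K for Krt5 plus Krt14.

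**Figure D1:**
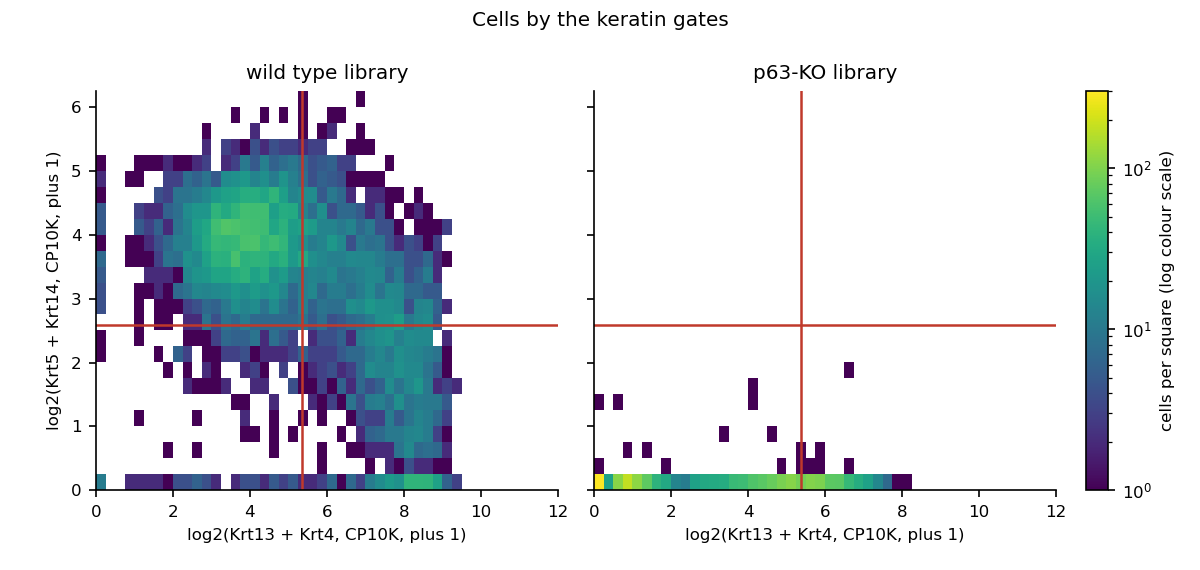
Cells past the filter by Krt13 plus Krt4 (x axis) and Krt5 plus Krt14 (y axis), both as log2(CP10K plus 1), in the wild-type library (left) and the p63-KO library (right). Red lines are the gates at 40 and 5 CP10K and colour is the number of cells per square on a log scale. The gated basal cells lie in the upper left field, in which the p63-KO library has 0 cells.

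The gated cells held 13822473 UMIs, with a median of 9361 UMIs and 3481 genes per cell, against medians of 12249 UMIs and 3973 genes in the other passing cells. Barcodes numbered 6034 in the wild-type and 2821 in the p63-KO file, whose UMIs summed to 76472445 and 86504624. The libraries shared 8 barcodes, of which 0 were gated cells. Doublets were not removed in the main values, and as an alternative the cells with the highest doublet scores were left out, 23 of them gated cells. Both Xist and Y-linked RNA were found in 6.40% of gated cells and in 9.36% of the others.

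Markers of other cell types were low or at 0 in the gated cells. Summed CPM was 5.14 for 6 multiciliated genes in gated cells, against 74.2 in the other cells. The immune list summed to 1.81 CPM in gated cells and 8.42 in the others, and the smooth muscle list to 2.24 and 4.13. The neuroendocrine list summed to 0.796 CPM in gated cells with 3 of 6 genes at 0 UMIs, and to 1.11 in the others. The endothelial list summed to 9.69 CPM in gated cells and 6.41 in the others, and the erythroid list to 9.26 and 66.3. Single genes carried the larger sums. The Schwann cell list had 43.3 CPM in gated and 99.2 in the other cells, of which 38.6 and 95.9 were Erbb3, a receptor that epithelia also use, and 2 of its 6 genes were at 0 UMIs in gated cells. The melanocyte list had 14 CPM in gated and 11.8 in the other cells, with 3 of 6 genes at 0 UMIs in gated cells. The fibroblast list summed to 75 CPM in gated cells, and to 85.2 in the others. Dcn (decorin, a matrix proteoglycan) stood higher in gated cells, with 71.4 CPM against 31.4 in the others, a log2 ratio of 1.16. The list's collagen gene Col1a1 had 2.24 CPM in gated cells. No gated cell reached 10 CP10K for any of these lists.

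Krt5, Krt14, Trp63, Nkain3 and Shh were the markers given for these cells. At full depth 24.1% of gated cells had UMIs of all 5, 52.6% of 4, and 0.974% of only 1. After thinning to 2000 UMIs the shares with all 5 and with 4 were 1.69% and 18.1%. Krt5 was found in 99.2% of gated cells, Trp63 in 92.6%, Krt14 in 88.0%, Nkain3 in 82.7%, and Shh in 31.8%. Thinning left out 21 gated and 32 suprabasal cells with fewer UMIs. Krt5 was then found in 89.0% of gated cells, 52.8% of suprabasal cells and 19.2% of 26 multiciliated wild-type cells. Without thinning it was in 86.9% of suprabasal cells. The multiciliated cells were those with at least 10 CP10K of the 6 multiciliated genes together. Of the 27 before thinning, 7 were also suprabasal and 3 also cycling basal cells by the gates, so they are no clean background. Nkain3 stood at 55.1% of gated cells, 12.9% of suprabasal cells and 0 of the 26 multiciliated cells, which allows a share of up to 13.2% (exact upper limit). Shh stood at 9.96%, 1.33% and 0 in the same order. Without thinning Nkain3 and Shh were in 34.9% and 8.91% of suprabasal cells. The multiciliated cells were the deeper ones, with a median of 22903 UMIs against 9361 in gated and 13362 in suprabasal cells.

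The levels of the rule's own genes describe the choice and are no result. Krt5, a type II keratin that pairs with Krt14, had 1082 CPM in gated cells and 694 in the other cells. Krt14 had 481 and 258 CPM. Suprabasal keratin RNA was low but present: Krt13 had 921 CPM in gated cells against 13712 in suprabasal cells, and Krt4 731 against 9026. Thinned cells with a Krt13 UMI made up 68.0% of gated cells and 61.5% of the multiciliated cells, some of which were suprabasal by the gates. With no clean background, the members' share is not read as expression.

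Of the keratins outside the rule, Krt15 had the most UMIs and was about as high in gated cells as in the others. It had 10231 CPM in gated cells, 9506 in cycling basal cells, 11044 in Zbtb16-set basal cells and 11431 in suprabasal cells. Krt15 is a type I keratin often used as a basal marker, and its level per cell ran from 68.5 CP10K at the 10th percentile to 140.1 at the 90th among gated cells. Krt17, a keratin of embryonic and injured epithelium, had 429 CPM in gated cells and 249.8 in the other cells. Krt6a, which is induced in wounded and suprabasal squamous cells, had 127 CPM (121 to 133) in gated cells and 1703 in suprabasal cells.

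Trp63 RNA stood at 469 CPM (458 to 480.4) in gated cells, 438 in cycling basal cells, 509 in Zbtb16-set basal cells, 146 in suprabasal cells and 105 in p63-KO epithelial cells. The basal groups lay close together and well above the suprabasal cells. The counts come from transcript 3' ends and the sources used here do not say which part of Trp63 the allele replaces, so the RNA left in p63-KO cells does not check the label. Trp53, the tumour suppressor relative, had 143 CPM in gated cells and 102 in the other cells. Trp73 was low, at 9.69 CPM in gated cells and 4.44 in the others.

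Against the other passing wild-type cells, 151 of 9448 measured genes (1.60%) were 2-fold or more higher in gated cells and 728 (7.71%) at least 2-fold lower. The median log2 ratio of all measured genes was 0.11. The rule used these cells' own RNA, so the counts describe the choice of cells. Over the alternatives tried the number of higher genes ranged from 57, with every cell weighing equally, to 261, among cells in which Y-linked but no Xist RNA was found. The 20 leading higher genes had log2 ratios of 1.18 to 1.57. They were Hs3st5, Kcnh1, Nkain3, Tgm2, Vcan, Ntf3, Thsd4, Tmem108, Dlk2, Nav1, Smoc2, Pcsk5, Cdh11, Ccnd1, Adamts18, Col8a1, Eya4, Dkk3, Fndc1 and Lgr5.

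Among these 20 genes, Vcan (versican, a large proteoglycan) had 335 CPM in gated cells and 129 in the others, a ratio of 2.59 (2.5 to 2.69). Smoc2, a secreted calcium-binding matrix protein, had 361 CPM in gated cells and 27.3 in suprabasal cells, 13.2-fold higher (12.3 to 14.2). Fndc1, a protein with fibronectin type III domains, had 453 CPM in gated cells, 372 in cycling basal cells and 75.3 in suprabasal cells. Hs3st5, which adds sulfate to heparan sulfate, had 112 CPM in gated cells, 70.8 in cycling and 44.5 in Zbtb16-set basal cells. It was found in 14.8% of thinned gated cells and 27.4% at full depth. Col8a1 (a short-chain collagen), Adamts18 (a metalloprotease), Thsd4 (a fibrillin-binding protein) and Tgm2 (a protein cross-linking enzyme) had 152, 94.8, 258 and 65.8 CPM in gated cells. Their suprabasal levels were 15.2, 20.7, 32.2 and 6.5 CPM.

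Of the remaining genes of the 20, Nkain3, a membrane protein that binds a sodium pump subunit and lies at chr4:20118874-20778866 (mm10, GENCODE M21), had 636 CPM (623 to 649) in gated cells. It had 413 CPM in cycling, 542 in Zbtb16-set basal and 91.1 in suprabasal cells. Kcnh1, a voltage-gated potassium channel at chr1:192190774-192510159, had 114 CPM in gated cells and 38.4 in the others. Ntf3 (neurotrophin 3, a growth factor for sensory and sympathetic neurons) had 97.6 CPM in gated cells and 10.9 in suprabasal cells. Dlk2, a membrane relative of the Notch ligands, had 111 and 11.5 CPM in these groups. Sdk1, an adhesion protein of synapses, was not among the 20 but was the second highest named gene against suprabasal cells, with 183 CPM in gated cells and 14.8 in suprabasal cells.

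All 151 higher genes were at least 2-fold higher than in suprabasal cells (median log2 ratio 2.35), where 12% of all measured genes were. Suprabasal cells gave 33536820 of the 62200950 UMIs of the other cells, so this was nearly bound to the choice of the 151. Against cycling basal cells 1 of the 151 passed 2-fold (median 0.33), and against Zbtb16-set basal cells 10 did (median 0.13). The fibroblasts of the p63-KO library also held some of these RNAs, with 665 CPM of Vcan, 620.4 of Col8a1, 663 of Thsd4, 451 of Cdh11 and 363 of Pcsk5. They held 1.03 CPM of Kcnh1, 2.51 of Ntf3 and 0 of Dlk2. Gated cells had 2.24 CPM of Col1a1, which those fibroblasts held at 10477. The fibroblasts were chosen by Col1a1, Col1a2 and Col3a1 together of at least 20 CP10K, with Epcam plus Cdh1 under 2. Their Col1a1 level therefore describes the choice, and the source of the shared RNAs in gated cells was not tested.

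**Figure D2:**
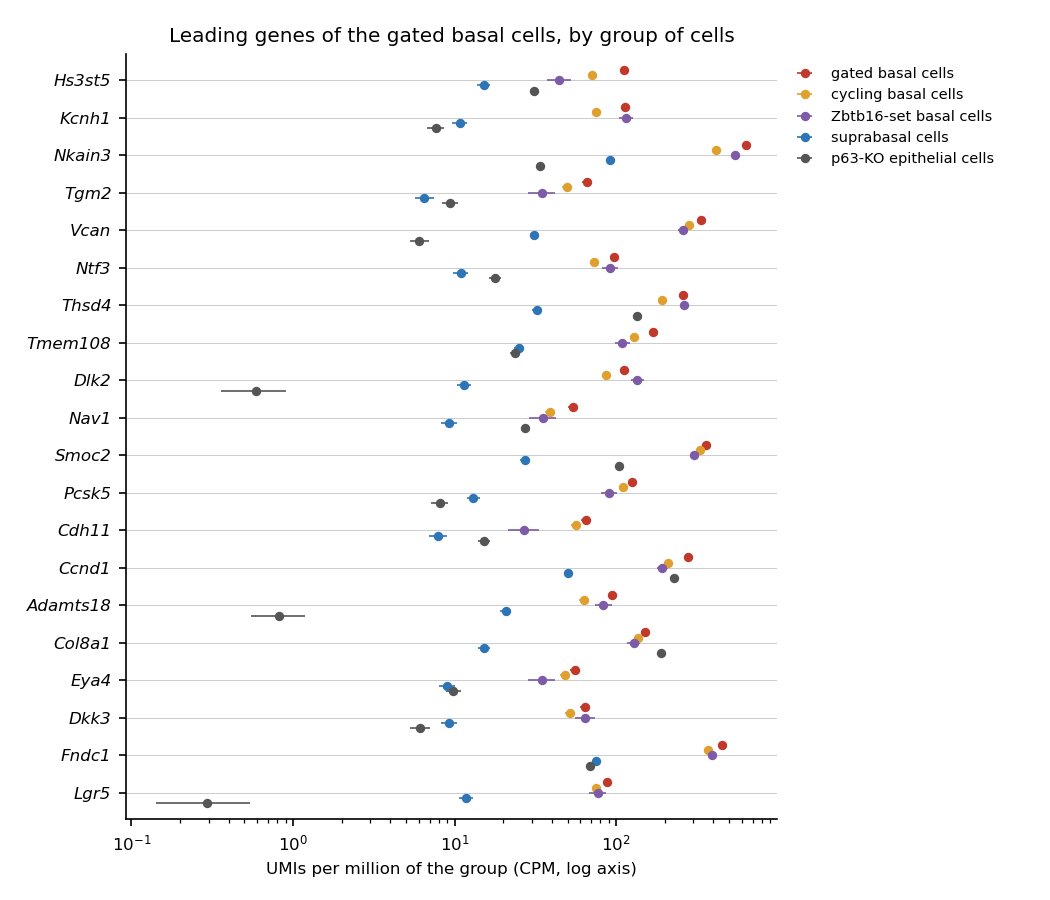
CPM (log axis) of the 20 leading genes in gated basal cells, cycling basal cells, Zbtb16-set basal cells, suprabasal cells and p63-KO epithelial cells, with exact 95% Poisson intervals of the counts. In all 20 genes the suprabasal level is lower by at least 2-fold, while cycling basal cells lie within 2-fold of the gated cells in all 20 and Zbtb16-set basal cells in 18, and p63-KO cells range from 0.294 CPM for Lgr5 to 227 for Ccnd1.

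Of the 10 lowest genes against the other cells, 5 were in the squamous list (Mal, Ly6d, Calml3, Tgm3 and Sprr1a) and 5 were not (Psca, Hopx, Upk3a, Arg1 and Pdzk1ip1). Mal, a lipid raft protein of apical sorting, had 11.1 CPM (9.38 to 13.0) in gated cells against 1184 in the others, 107-fold lower (91.3 to 126). Psca and Ly6d, which are surface proteins of the Ly6 family, had 32.9 and 27.3 CPM in gated cells against 2184 and 1775. Hopx, a homeodomain protein without DNA binding, had 9.26 CPM against 614. Calml3, Upk3a, Tgm3, Sprr1a, Arg1 and Pdzk1ip1 completed the 10 lowest and were 49.3 to 78.7-fold lower in gated cells. The squamous list had 27 of 27 measured genes at least 2-fold lower in gated than in suprabasal cells, where 980 of 9463 of all measured genes (10.4%) were. Higher against suprabasal cells were 1131 genes (12%). Krt13 and Krt4 are in that list and chose the cells.

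Genes of attachment to the basement membrane were higher in gated than in suprabasal cells. Of 28 measured genes of hemidesmosomes and the basement membrane, 19 were 2-fold or more higher and 0 lower (median log2 ratio 1.25, against 0.26 for all measured genes). Col17a1 (type XVII collagen) and Itgb4 (integrin beta 4), both parts of the hemidesmosome, had 364 and 188 CPM in gated cells and 113 and 49.5 in suprabasal cells. Dst, whose product links keratins to hemidesmosomes, had 493 CPM in gated and 132 in suprabasal cells. Fras1, which anchors epithelium to the matrix below, had 368 and 80.2 CPM, and the basement membrane proteoglycan Hspg2 (perlecan) 82.8 and 12.7. Itga6 was less far apart, with 107 CPM in gated and 64.4 in suprabasal cells.

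Genes of contact between cells lay on the other side. Of 11 desmosome genes measured against suprabasal cells, 7 were 2-fold or more lower in gated cells and 2 higher (median -1.43). Dsc2 (desmocollin 2) had 48.9 CPM in gated cells and 399 in suprabasal cells, and Dsp (desmoplakin) 527 and 1422. Dsc3, another desmocollin, went the other way, with 14.5 CPM in gated and 5.40 in suprabasal cells. Of 21 genes of adherens and tight junctions, 13 were 2-fold or more lower in gated cells and 2 higher. Cldn3, a claudin, had 6.00 CPM in gated cells and 454 in suprabasal cells, and Cdh1 (E-cadherin) 179.7 and 553. Cdh3 (P-cadherin) and Cldn1 were the higher ones, with 107 and 37.0 CPM in gated and 24.8 and 12 in suprabasal cells.

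Of the secreted signals, Shh (sonic hedgehog, at chr5:28456815-28467256) had 46.2 CPM (42.6 to 49.9) in gated cells, 34.8 in cycling, 20.7 in Zbtb16-set basal and 7.07 in suprabasal cells. Its receptor Ptch1 had 106 CPM in gated and 34.9 in suprabasal cells, and the co-receptor gene Cdon 106 and 36.6. All 9 measured Hedgehog genes had ratios above 0 against suprabasal cells, 6 of them by at least 2-fold. Of Wnt genes, 10 of 28 were 2-fold or more higher and 2 lower (median 0.70). These and the other list counts against suprabasal cells stand beside 12% higher and 10.4% lower over all measured genes. The ligand Wnt3a had 22.5 CPM in gated cells against 2.42, and Lgr5, a receptor for R-spondins, 87.5 against 11.8. Wnt7b went the other way, with 2.60 CPM in gated and 18.7 in suprabasal cells. The Wnt4 ligand had the most UMIs of the list, with 719.9 CPM in gated and 888 in suprabasal cells.

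The Notch ligands differed from each other. Jag2 had 90.3 CPM in gated and 14.3 in suprabasal cells, while Jag1 had 17.4 and 76.0. The receptor Notch3 had 24.1 CPM in gated and 134 in suprabasal cells, and the pathway's feedback inhibitor Nrarp 5.86 and 57.9. Over the list 2 of 14 genes were 2-fold or more higher and 4 lower, where 12% and 10.4% of all measured genes were. Of 32 EGF and FGF family genes, 8 were 2-fold or more higher and 7 lower in gated cells. Areg and Hbegf, ligands of the EGF receptor, had 2.89 and 19.2 CPM in gated cells against 103 and 114 in suprabasal cells. Fgfr2, a receptor for fibroblast growth factors, had 931 and 319 CPM. Of 27 BMP and TGF-beta genes, 9 were higher by 2-fold, such as Bmp7 with 46.9 CPM in gated and 10.5 in suprabasal cells, and 2 were lower. Among axon guidance genes, 11 of 34 were higher by 2-fold and 6 lower, with the semaphorin Sema5a at 198 CPM in gated and 34.8 in suprabasal cells, the repellent ligand Slit3 at 6.37 CPM in gated and 20.5 in suprabasal cells and the netrin receptor Unc5b at 1.23 and 21.3.

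Transcription factors were mixed, with 10 of 32 at least 2-fold higher and 8 lower in gated than in suprabasal cells. Nfib, a nuclear factor I gene, had 568 CPM in gated and 232 in suprabasal cells, and the forkhead gene Foxp1 1719.9 and 809.9. Ehf, Elf3 and Grhl1, factors of epithelial maturation, had 63.5, 33.9 and 5.35 CPM in gated cells against 364, 229 and 71.5. Sox2 and Pax9, which mark the foregut, differed less, with 259 and 225 CPM in gated and 159 and 238 in suprabasal cells.

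**Figure D3:**
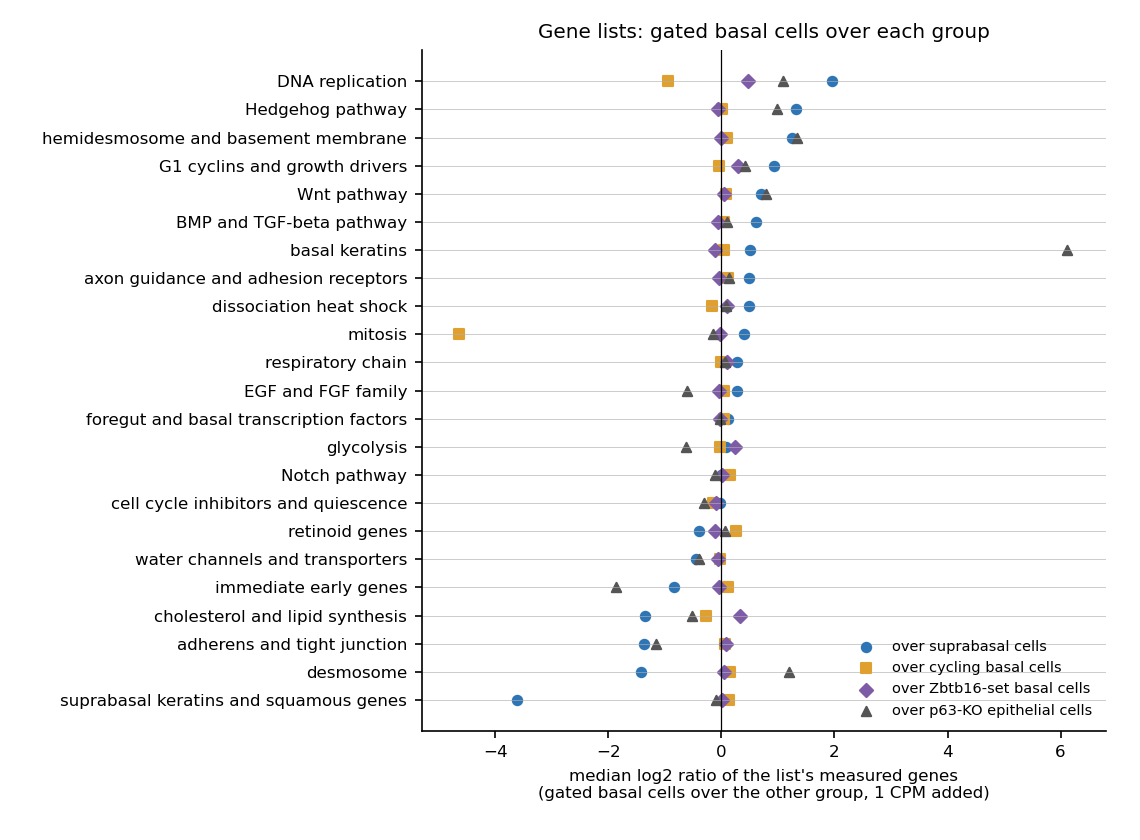
Median log2 ratio (1 CPM added) of the measured genes of each list, gated basal cells over suprabasal, cycling basal, Zbtb16-set basal and p63-KO epithelial cells. Over suprabasal cells the medians run from 1.95 for DNA replication to -3.62 for squamous genes, while over cycling and Zbtb16-set basal cells most lie near 0, apart from the mitosis list at -4.65 and the DNA replication list at -0.95 over cycling basal cells.

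The cells were low in mitosis RNA beside cycling basal cells, while RNA of most growth and DNA replication genes stood above the suprabasal level. Ccnd1 and Ccnd2 (D-type cyclins, which drive G1 cells toward S phase) had 279 and 919.9 CPM in gated cells, 208 and 721 in cycling basal cells and 50 and 309.6 in suprabasal cells. Myc, a growth-promoting transcription factor, had 31.9 CPM in gated cells, 23.1 in cycling basal and 9.03 in suprabasal cells. Cdkn1a (p21) and Cdkn2b (p15), inhibitors of cyclin-dependent kinases, had 83.8 and 0.434 CPM in gated cells against 433 and 37.4 in suprabasal cells. Cell cycle inhibitors and quiescence genes as a whole did not differ: of 23 measured, 3 were 2-fold or more higher and only these 2 lower. Their median log2 ratio against suprabasal cells was -0.02. Of 26 DNA replication genes, 25 were 2-fold or more higher in gated than in suprabasal cells, against 12% of all measured genes. Cdt1, which loads the replicative helicase onto DNA, had 35 CPM in gated cells, 42.4 in cycling basal and 6.38 in suprabasal cells. Rrm2, which makes DNA precursors, had 14.7, 110.4 and 5.25 CPM in the same order. Against cycling basal cells, 14 of 30 DNA replication genes were 2-fold or more lower in gated cells and 0 higher (median -0.95). Of all measured genes 3.87% were lower there. Cycling basal cells had failed a gate on genes of S phase or mitosis, so this lean was partly built in. The DNA replication list summed to 1215 CPM in gated, 2434 in cycling basal and 350.1 in suprabasal cells. A cluster of 323 gated cells, described further on, held much of it. Against the other passing cells the list's median log2 ratio was 0.09 with those cells and -0.58 without them.

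Counted per cell after thinning to 2000 UMIs, at least 2 of 30 DNA replication genes were found in 48.9% of gated cells (46.2 to 51.5), 71.3% of cycling basal cells and 14.1% of suprabasal cells. Without thinning these shares were 88.9%, 95.8% and 74.0%. At least 2 of 26 mitosis genes were found in 4.87% of thinned gated cells (3.81 to 6.13), 76.1% of cycling basal cells and 3.64% of suprabasal cells. Unthinned, these shares were 34.1%, 93.9% and 45.8%. The gates had used other genes of S phase and mitosis, so a low share of the mitosis list was bound to the choice. The lower DNA replication share than in cycling basal cells was partly bound to it too. Nothing here measures division itself.

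**Figure D4:**
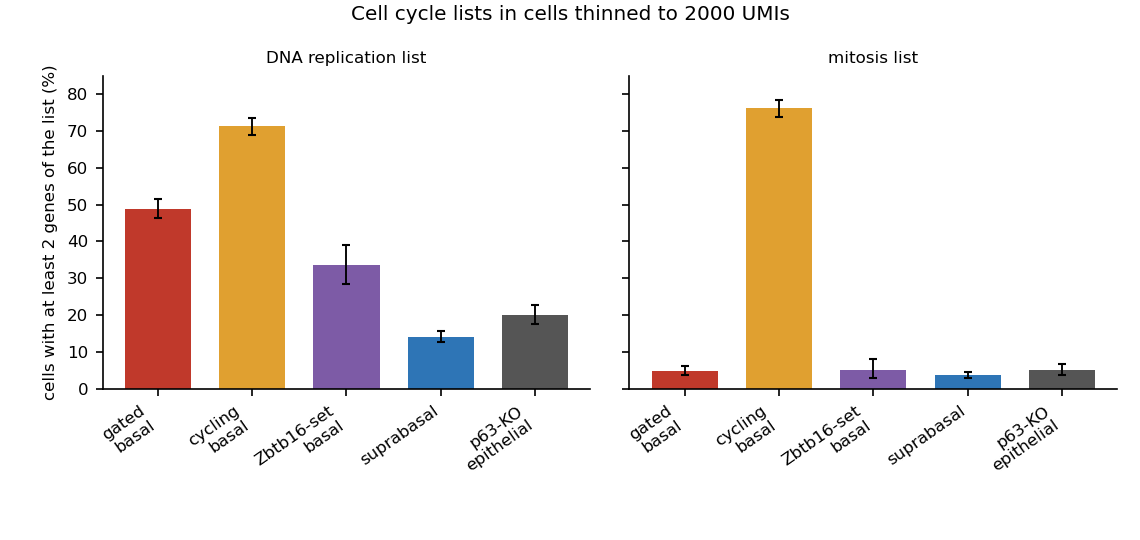
Share of cells, each thinned to 2000 UMIs, with UMIs of at least 2 genes of the DNA replication list (left) or the mitosis list (right), with exact 95% binomial intervals. For DNA replication genes the gated basal cells, at 48.9%, lie between cycling basal cells at 71.3% and Zbtb16-set basal cells at 33.6%, whereas for mitosis genes they stand at 4.87%.

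Against cycling basal cells, 8 of 9248 measured genes (0.0865%) were 2-fold or more higher in gated cells and 358 (3.87%) at least 2-fold lower. The higher count was 0 at a minimum of 50 CPM and 29 among cells with Y-linked and no Xist RNA. The lowest were Hmmr, Aurkb, Kif4, Tpx2, Esco2 and Kif11, genes of the spindle and of sister chromatids, with 0.651 to 3.91 CPM in gated cells and 65.8 to 199 in cycling basal cells. The gates that set these groups apart used other genes of S phase and mitosis, so such low levels partly follow from the choice. The leading genes on the higher side that met the naming levels stayed under 2-fold. Nebl, an actin-binding protein, had 72.5 CPM in gated and 43.1 in cycling basal cells, 1.68-fold (1.53 to 1.85). Cpne8, Ptpre, Hotairm1, Fbxl20 and Gdpd1 followed at 1.62 to 1.66-fold. Outside the cell cycle lists 0 genes of the keratin, attachment, junction, Hedgehog, Wnt, Notch, BMP and EGF lists passed 2-fold in either direction between these groups.

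The Zbtb16-set basal cells were the other near neighbour, and 40 of 9112 measured genes (0.439%) were 2-fold or more higher in gated cells than there and 84 (0.922%) lower. Among cells with Y-linked and no Xist RNA, 37 of them Zbtb16-set cells, the counts were 391 and 297. The 5 genes of the gate chose the groups. Beyond them, Hs3st5, Cdh11 and Krt17 led the higher side, with 112, 65.0 and 429 CPM in gated cells against 44.5, 26.9 and 209. Lgals1 (galectin 1) had 67.8 CPM in gated and 32.7 in Zbtb16-set cells. On the lower side Nell1 and Sfrp1 (a secreted Wnt antagonist) had 7.23 and 7.38 CPM in gated cells against 54.4 and 50.7, and Mylk (myosin light chain kinase) 22.9 against 118. Lef1, a transcription factor of Wnt signalling, had 16.8 CPM in gated and 68.0 in Zbtb16-set cells, and the integrin gene Itga6 107 and 228. The share of cells with Xist RNA and no Y-linked RNA also differed, at 54.6% of gated and 83.7% of Zbtb16-set cells. Among cells with Xist and no Y-linked RNA the counts of higher and lower genes were 59 and 105.

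The metabolic lists did not share a direction. Of 21 cholesterol and lipid synthesis genes, 16 were 2-fold or more lower in gated than in suprabasal cells and 0 higher (median -1.35), with Fdps at 36.7 and 213 CPM. None of the 24 respiratory chain genes passed 2-fold against suprabasal cells in either direction, and of 14 glycolysis genes only Aldoc did, with 7.31 CPM in gated and 37.7 in suprabasal cells. Aqp3, a channel for water and glycerol, had 92.5 CPM in gated, 218 in Zbtb16-set basal and 604 in suprabasal cells. Rbp2, which carries retinol, had 7.45 CPM in gated against 298 in suprabasal cells, whereas the retinoic acid receptor gene Rarb had 235 and 133. The heat shock gene Hspb1 had 616 CPM in gated and 3606 in suprabasal cells.

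To see whether the Krt13 plus Krt4 gate cut through a gradient, cells that passed the cell cycle and Zbtb16-set gates were binned by Krt13 plus Krt4, the first 4 bins being the 1437 members. Smoc2 stood at 543, 475, 347 and 255 CPM in the members' bins (0 to 5, 5 to 10, 10 to 20 and 20 to 40 CP10K) and at 75.8, 31.7 and 13.9 in the bins above (40 to 80, 80 to 160 and over 160). Vcan ran from 555 CPM in the lowest bin to 230.0 in the members' highest bin, and Nkain3 from 856 to 489. So the members differed among themselves along the measure that chose them. Krt5 was level inside the gate, at 1058 to 1126 CPM over the members' bins, and had 335 in the top bin. All cells in the members' bins had passed the Krt5 plus Krt14 gate, which was not set on the bins above. There 84.3%, 60.2% and 27.5% of cells would have passed it, so the course of Krt5 partly follows from the choice. Notch3 was already higher within the gate, with 10.8 CPM in the lowest bin, 39.9 in the members' highest bin and 105 just above the gate. Hopx was level inside, at 8.21 to 10.5 CPM over the members' bins, and had 56.9 just above and 1474 at the top. Krt15 had its lowest level, 7137 CPM, at 80 to 160 CP10K and its highest, 13233, above that. Median depth moved with the bins, from 8641 UMIs in the lowest to 15114 in the top bin, and its part was not tested.

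**Figure D5:**
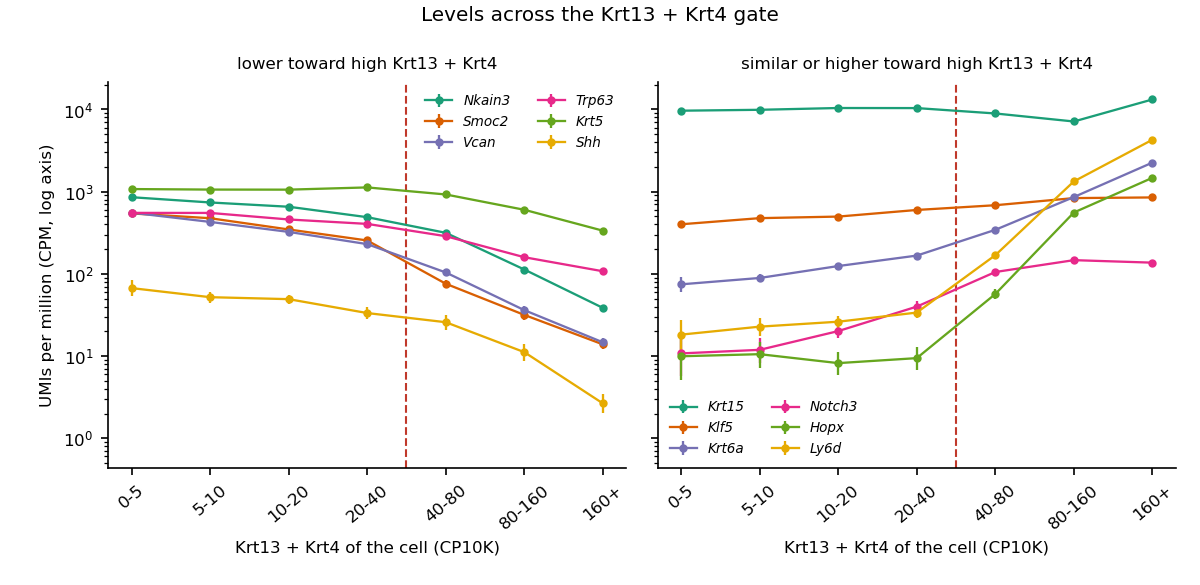
CPM (log axis) of 12 genes across bins of Krt13 plus Krt4 per cell, with exact 95% Poisson intervals, for cells past the cell cycle and Zbtb16-set gates. The dashed line is the gate, with the gated basal cells to its left, and only those were also held to the Krt5 plus Krt14 gate. Smoc2 runs from 543 to 13.9 CPM and Ly6d from 18.2 to 4283, while Krt15 stays between 7137 and 13233.

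Variation among gated cells was measured by the Fano factor (variance over mean) of UMIs thinned to 5000 per cell, in 1304 cells and 4329 genes, whose median was 1.07. The highest values were those of Kcnq5, a potassium channel subunit, at 7.62, and of the nuclear RNA Malat1, at 7.59. Kcnq5 had 1 UMI at the 10th percentile, 7 at the median, 20 at the 90th and 69 in the highest cell. S100a6, Hs3st5, Krt15, Alcam, Pcdh9, AY036118, Nkain3, Plcb1, Meis2 and Slit2 followed at 5.46 to 3.26. Hs3st5 was at 0 UMIs in 77.2% of these cells and had up to 16 in the highest, so its level came from a minority of cells. Krt5, a gene of the rule, had 1.5 and Trp63 had 1.75. Both values lay above the 90th percentile of the 4329 genes (1.28) and below the 99th (2.18). The Fano factor was not adjusted for a gene's mean, which was 51.7 thinned UMIs for Krt15 and 37.9 for Malat1. Eef1a1, with a mean of 45.8, had a factor of 2.34. The ranks and percentiles are therefore not read as spread apart from level.

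Clustering of the gated cells gave 5 clusters, which are described by their leading genes and get no name and no test. Cluster 1 (484 cells) was led by Brinp3, Col11a1, Grik4, Dcn, Nebl and Trpc4. Dcn had 115 CPM there and 53.2 in the other gated cells, and Nkain3 had 858 and 542. Cluster 2 (323 cells) had Ung, Hells, Mcm3, Timeless and Atad2 among its leading genes, which are genes of DNA synthesis and repair. Its DNA replication list summed to 2559 CPM, against 749.5 in cluster 1, 555 in cluster 3, 956 in cluster 4 and 2319 in the 25 cells of cluster 5, each above the suprabasal sum. The helicase gene Mcm3 had 149.5 CPM in cluster 2 and 30.3 in the other gated cells. Cluster 3 (308 cells) was led by Mylk, Mctp1, Tmprss11a, Notch3, Igfbp7 and Rtl3. Tmprss11a, a surface protease, had 416 CPM there and 112 in the other gated cells, and the cluster's median Krt13 plus Krt4 was the highest of the 5, at 21.7 CP10K. Cluster 4 (297 cells) was led by Egr1, Atf3, Tex14, Fos, Dusp1 and Irs2. Fos, a transcription factor gene that is switched on within minutes of many stimuli, had 566 CPM there and 185 in the other gated cells. Cluster 5 held 25 cells with a median of 2905 UMIs and had Fam111a, Rrm2, Smim22, Zcchc9 and Dcxr among its leading genes. Its mitochondrial share was 0.238%, against 2.91 to 3.41% in the other clusters.

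The clusters were not evenly made up of Xist cells and Y cells, as cells with Xist RNA alone or Y-linked RNA alone are called here, which come from different embryos. Xist cells made up 87.2% of cluster 4, 64.9% of cluster 3, 53.6% of cluster 2 and 31.2% of cluster 1. Over all gated cells Fos had 399.7 CPM in Xist cells and 95.1 in Y cells, and Egr1 149 and 37.1. Within cluster 1 the Fos levels were 191 and 78.1 CPM. Ung, which led cluster 2, had 39.1 and 41.7 CPM. Sex, embryo and the handling of each embryo cannot be told apart here. Of the 151 genes higher than in the other cells, 107 passed 2-fold in both kinds of cell and all 151 had the same sign. Of the 728 lower genes 663 passed in both and 725 had the same sign. These genes were called on pooled cells that include the same Xist and Y cells, so this agreement is partly built in.

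Against p63-KO epithelial cells, 944 of 10216 measured genes (9.24%) were 2-fold or more higher in gated basal cells and 1882 (18.4%) lower. Each genotype is 1 library, so library and genotype cannot be told apart. The p63-KO group was mixed: mucous markers summed to 1.95 CPM in gated cells and 2934 in p63-KO cells, neuroendocrine markers to 0.796 and 1111, and fibroblast markers to 75 and 825. Median depth was 9361 UMIs in gated and 20422 in p63-KO cells. With a stricter gate of 4 CP10K of Epcam plus Cdh1 on the p63-KO cells the counts were 941 and 1879. The part of depth and of the mucous and endocrine cells was not tested.

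Krt5 and Krt14 had 11 and 28 UMIs in all 964 p63-KO epithelial cells together, which is 0.324 and 0.824 CPM. Krt17 had 429 CPM in gated and 5.24 in p63-KO cells, whereas Krt15 had 10231 and 4164, a ratio of 2.46. The highest genes by the naming rule were Vsnl1, Kcnq5, Cd109, Col17a1, Sim2 and Dlk2. Vsnl1, a calcium sensor, had 195 CPM in gated cells and 3 UMIs in p63-KO cells, a ratio of 2211 (counting interval 756 to 10729.8). Kcnq5 had 1817 CPM in gated and 12.3 in p63-KO cells, and Cd109, a surface protein that binds TGF-beta, 262 and 1.12. Col17a1 had 364 and 2.44 CPM, and the transcription factor gene Sim2 154 and 0.706. Of the 151 genes higher than in the other passing wild-type cells, 102 were 2-fold or more higher than in p63-KO cells and 9 lower. Over all measured genes the shares were 9.24% and 18.4%. The 151 were chosen for their level in the same gated cells, so a lean to the higher side is partly built in. Ccnd1 was among the smaller differences, with 279 CPM in gated and 227 in p63-KO cells.

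Attachment genes were again on the higher side, 16 of 29 by at least 2-fold and 3 lower (median 1.33, against 0.03 for all measured genes). Itga6 was one of the lower ones, with 107 CPM in gated and 232 in p63-KO cells. Desmosome genes, which were lower in gated than in suprabasal cells, were on the higher side here, 6 of 11 by 2-fold and 1 lower. Dsg3 (desmoglein 3) had 168 CPM in gated and 7.35 in p63-KO cells. Of adherens and tight junction genes 3 of 22 were higher and 14 lower. Epcam plus Cdh1 chose the p63-KO cells, so the level of Cdh1 there describes the choice. Cldn1 had 37.0 CPM in gated and 0.324 in p63-KO cells, and Cldn3 6.00 and 550.0. Shh had 46.2 CPM in gated and 3.85 in p63-KO cells, and Wnt4 719.9 and 253. Immediate early genes were lower in gated cells, 17 of 22 by at least 2-fold, with Junb at 137 CPM in gated and 460.2 in p63-KO cells. These list counts stand beside 9.24% higher and 18.4% lower over all measured genes.

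The 6 lowest genes against p63-KO cells were Tff2, Agr2, Spink4, Muc16, Chgb and Sst. Tff2 (a trefoil peptide), Spink4 and Chgb (chromogranin B) had 1 UMI each in gated cells and 809, 742 and 323 CPM in p63-KO cells. Agr2, needed to fold mucins, had 5 UMIs in gated cells and 961 CPM in p63-KO cells, and the membrane mucin Muc16 4 UMIs and 481 CPM. Sst (somatostatin) had 0 UMIs in gated cells and 254 CPM in p63-KO cells, at least 1168-fold lower with a floor of 3 counts over the gated cells.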

How the data were processed

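The deposited files hold UMI counts per gene and cell for 1 wild-type and 1 p63-KO library, not normalized, with 32285 genes. The submitters' processing notes name Cell Ranger 7.1.0 and the mm10 build. The labels name a 10x Genomics kit; how empty droplets were removed is not given in the sources used here. Kept cells had 500 genes, 1000 UMIs and a mitochondrial share of 10% or less, doublets were not removed, and gates were set on each cell's CP10K. UMIs were summed per group. Intervals are exact Poisson for CPM, conditional binomial for folds and Clopper-Pearson for shares. They treat cells as 1 pool and cover counting error only. The calling of genes was run on simulated Poisson counts for the comparison with the other wild-type cells. There 100% of genes changed 3-fold and 0 of 8876 unchanged genes were called. The simulated counts had no spread between cells, embryos or libraries, so this checks the calculation and not the calls in the real data. Gated cells were clustered with Leiden (resolution 0.5) on 2000 variable genes, 20 principal components and 15 neighbours. Coordinates are those of GENCODE M21. The 78 rows whose gene symbol stands on more than 1 row were left out of named genes and lists.

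The members, gene lists and naming rule were chosen with earlier results of these data known. Named were the 20 highest and 10 lowest genes against the other cells and the 6 highest and lowest in each other comparison (50 CPM and a UMI in 10% of cells), up to 4 genes per list with the largest ratios or with 500 CPM, the 12 highest Fano factors and the 6 leading genes of each cluster. Dsc3, Cdh3, Cldn1, Sox2, Pax9 and Trp73 were named after their values were seen. Some genes that the rule takes are not reported here. Tools were Python 3.11.15, numpy 2.4.6, scipy 1.17.1, pandas 2.3.3, scikit-learn 1.9.0, igraph 0.11.9, leidenalg 0.10.2 and matplotlib 3.10.9.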

Additional observations from a re-analysis of the deposited data

How the results depend on the processing

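No paired analysis was possible because each genotype is 1 library. Gates, depth, scaling, pseudocount, filters, doublets, sexes and clusters were varied, and those that left out a cluster were chosen after seeing the data. Of 231 alternative counts of cells or genes, 198 stayed within 1.5 times the main count and 33 did not. Members numbered 785 with Xist RNA alone and 479 with Y-linked RNA alone. Of genes higher than in the other cells, there were 94 with Krt13 plus Krt4 under 80 CP10K, 261 in Y cells, 57 with every cell weighing equally, 77 with a minimum of 50 CPM and 79 with 5 CPM added. At a minimum of 50 CPM there were 277 lower genes against the other cells, 436 higher and 497 lower against suprabasal cells, 0 higher and 177 lower against cycling basal cells, 5 higher and 38 lower against Zbtb16-set basal cells, and 451 higher and 830 lower against p63-KO cells. With no minimum there were 1292 lower genes against the other cells, 1514 lower against suprabasal cells, 21 higher against cycling basal cells, 171 higher and 224 lower against Zbtb16-set basal cells, and 3351 lower against p63-KO cells. Higher genes against cycling basal cells also numbered 4 with the cell cycle gates at 0.5 of their values, 5 with the Zbtb16-set gate at 0.5 of its value, 15 with no gate on that set, 29 in Y cells, 1 with 5 CPM added and 14 without cluster 2. Against Zbtb16-set basal cells there were 14 higher genes with that gate at 0.5 of its value, 17 with 5 CPM added and 391 in Y cells, and 297 lower genes in Y cells and 135 at a minimum of 5 CPM. With no gate on the Zbtb16 set the log2 ratios of its own genes against the other cells turned positive (Ccbe1 0.87, Edaradd 1.23, Tenm2 1.01, Zbtb16 1.26, Tnfrsf19 2.0), as that construction makes them, and so did that of Sfrp1 (0.81). In Y cells those of Col1a1 (0.64), Col1a2 (0.48), Hba-a2 (0.30) and Hbb-bs (0.51) turned positive, and the cause was not tested. Of 24 list medians against the other cells, 5 changed sign under some setting, reaching -0.58 for DNA replication (without cluster 2), -0.18 for retinoid genes, -0.04 for basal keratins, 0.04 for Notch genes and 0.08 for cell cycle inhibitors, and that of immediate early genes was -0.55 in the main values and -0.92 without cluster 4. Leaving mitochondrial and ribosomal protein genes out of the totals moved the median log2 ratio of all genes against p63-KO cells to 0.15, against 0.03 in the main values. The Zbtb16-set comparison with no gate on that set was not run, since its groups would overlap. With a median of 9361 UMIs per gated cell, a gene missing from a single cell is not shown to be silent there.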
